A study of Mus musculus with 2 samples.

Results

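The genes of the T cell receptor complex and of the signalling steps next to it were examined in differentiating Treg cells with and without an HDAC6 inhibitor. They are 9 of the 23282 rows of the expression tables and were taken by gene symbol: Cd3d, Cd3e, Cd3g and Cd247, which encode the signalling chains of the receptor, the coreceptor gene Cd4, the kinase genes Lck and Zap70, and the adaptor genes Lat and Lcp2. Each symbol had 1 row. Naïve CD4+ T cells from the spleens of wild-type female C57BL/6 mice aged 7 to 10 weeks were stimulated with anti-CD3ε on the plate (5 μg/ml) and anti-CD28 in solution (2 μg/ml) and kept for 1 day with 5 ng/ml TGF-β1, 1 ng/ml IL-2 and antibodies that block IL-4 and IFN-γ, which both cultures shared. The control culture received the solvent DMSO and the other 10 μM Tubastatin A (TSA), an inhibitor of the deacetylase HDAC6, and 1 RNA library was sequenced for each. No value below therefore has a replicate check, and differences between the libraries cannot be told apart from differences between the cultures or library preparations. The stimulus in both cultures was an antibody to the protein that Cd3e encodes.

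The T cell receptor has antigen-binding chains that carry almost no signalling sequence of their own, and relies on the CD3γ, CD3δ and CD3ε chains and the ζ chain (encoded by Cd247), whose cytoplasmic tails hold immunoreceptor tyrosine-based activation motifs. When the receptor is engaged, LCK, a Src family kinase bound to the CD4 tail, phosphorylates these motifs, and ZAP-70 binds to them through its SH2 domains. ZAP-70 then phosphorylates LAT, a membrane adaptor, and SLP-76 (encoded by Lcp2), and the complex built on these adaptors leads to calcium, Ras and protein kinase C signals.

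The CD3 genes lie together on mouse chromosome 9, where a region of 40056 bp holds Cd3g, Cd3d and Cd3e. In the GENCODE M21 annotation of GRCm38 (the build also known as mm10, which the submitters' processing notes name), Cd3g lies at chr9:44969572-44980431 on the minus strand and Cd3d at chr9:44981786-44987339 on the plus strand, so that they point away from each other with 1355 bp between their starts. Cd3e lies at chr9:44998740-45009627 on the minus strand, with its end facing that of Cd3d across 11401 bp. Cd247 lies on chromosome 1 (chr1:165788681-165877277, plus strand). Zap70 is on the same chromosome (chr1:36761798-36782818, plus strand), Lck on chromosome 4 (chr4:129548344-129573641, minus strand), Cd4 on chromosome 6 (chr6:124864692-124888221, minus strand), Lat on chromosome 7 (chr7:126363824-126369570, minus strand) and Lcp2 on chromosome 11 (chr11:34046920-34092295, plus strand). All 9 are annotated as protein-coding genes.

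The promoters of the 3 neighbouring CD3 genes are shown because these neighbours differed in the direction of their change, and those of Cd247 and Lcp2 because these were the members with the highest and the lowest change. Each sequence is from RefSeq on GRCm38.p6 and runs 5′ to 3′ on the strand of the gene, from 250 bases before the annotated start to 50 bases after it. Capitals mark GGAA on either strand (TTCC when it is on the other), the core that ETS family factors recognise.
Cd3g, chr9:44980382-44980681, minus strand: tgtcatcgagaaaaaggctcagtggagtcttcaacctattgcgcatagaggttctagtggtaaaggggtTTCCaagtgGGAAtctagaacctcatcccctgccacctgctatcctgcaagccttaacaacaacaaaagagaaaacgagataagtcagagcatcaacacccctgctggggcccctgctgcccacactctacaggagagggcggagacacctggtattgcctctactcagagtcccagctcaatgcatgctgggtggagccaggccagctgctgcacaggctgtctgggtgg
Cd3d, chr9:44981536-44981835, plus strand: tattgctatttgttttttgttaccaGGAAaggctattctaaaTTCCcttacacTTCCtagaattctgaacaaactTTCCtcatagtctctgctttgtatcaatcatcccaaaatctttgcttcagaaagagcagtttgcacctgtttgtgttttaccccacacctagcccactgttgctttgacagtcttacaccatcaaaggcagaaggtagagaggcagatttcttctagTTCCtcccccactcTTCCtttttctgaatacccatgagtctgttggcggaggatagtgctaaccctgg
Cd3e, chr9:45009562-45009861, minus strand: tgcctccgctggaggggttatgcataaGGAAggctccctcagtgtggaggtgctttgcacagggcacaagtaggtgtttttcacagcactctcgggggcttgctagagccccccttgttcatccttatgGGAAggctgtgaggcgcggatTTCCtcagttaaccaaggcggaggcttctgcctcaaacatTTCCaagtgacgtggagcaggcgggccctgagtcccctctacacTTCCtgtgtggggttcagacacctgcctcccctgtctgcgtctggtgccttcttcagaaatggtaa
Cd247, chr1:165788431-165788730, plus strand: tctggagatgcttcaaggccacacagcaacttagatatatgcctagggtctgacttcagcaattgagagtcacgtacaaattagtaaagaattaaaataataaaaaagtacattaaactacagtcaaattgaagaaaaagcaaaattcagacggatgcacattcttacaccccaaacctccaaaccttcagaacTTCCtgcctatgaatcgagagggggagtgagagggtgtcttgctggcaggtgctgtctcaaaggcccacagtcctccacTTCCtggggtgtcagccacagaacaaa
Lcp2, chr11:34046678-34046977, plus strand: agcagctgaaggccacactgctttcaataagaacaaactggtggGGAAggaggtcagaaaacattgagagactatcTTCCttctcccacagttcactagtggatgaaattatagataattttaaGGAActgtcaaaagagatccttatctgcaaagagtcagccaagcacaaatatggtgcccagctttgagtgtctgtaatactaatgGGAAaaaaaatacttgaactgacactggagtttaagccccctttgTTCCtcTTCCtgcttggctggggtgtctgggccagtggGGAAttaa

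GGAA occurred 2 times in the Cd3g promoter, 6 times in that of Cd3d, 5 times in that of Cd3e, 2 times in that of Cd247 and 7 times in that of Lcp2. The RefSeq table held 11 promoters of 8 members, and 10 of the 11 had a match. This is a common match, since 96.0% of the 32851 promoters of that length had GGAA and the median promoter had 3. CANNTG, the E-box, which reads the same on both strands and was counted once, was present in all 11 promoters of the members and in 72.3% of all promoters, with 4 matches at Cd3g and 1 at Cd3d. TGTGGT, the core that RUNX factors bind, occurred in 1 promoter each of Lat, Lck and Zap70 and in 16.8% of all promoters. TATAAA was in none of the 11 and in 13.6% of all promoters. Both strands were searched, and a match was counted as letters only.

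The libraries were QuantSeq libraries, which read the 3′ end of each polyadenylated transcript. The deposited value of a gene is log2 of a normalised count plus 1, and the reads behind it could be found back, 10846089 in control and 10432570 in TSA-treated cells. A count of 0 allows up to 3 reads, a CPM (counts per 1000000 reads) of 0.277 and 0.288. Fold changes are TSA over control, computed from the deposited values, and the 95% intervals beside them come from the reads (exact binomial, Clopper-Pearson) and cover counting error only. A gene was tested when it had at least 10 reads in at least 1 library, which all 9 members and 12164 genes in total had. In bulk RNA, fewer cells with a transcript and less of it per cell cannot be told apart.

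All 9 genes were well expressed in both libraries, and none differed by 2-fold. Together they held 20115 reads (a CPM of 1855) in control and 20952 (a CPM of 2008) in TSA-treated cells. Per gene the reads ran from 602 to 4531, between the 71.4th and the 97.2nd percentile of all genes tested in the control library. For Cd3g, Cd3e and Lat the longest annotated transcript was longer than the longest coding one (2539 against 1023 nt for Cd3g). Divided by the length of the longest annotated transcript, the control reads ranged from 237 per kb for Cd3g to 2074 per kb for Lck. The TSA reads ranged from 286 per kb for Lcp2 to 2236 per kb for Cd3d. QuantSeq gives about the same reads for a short and a long transcript, so this order by length is given beside the reads and not in their place.

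**Figure D1:**
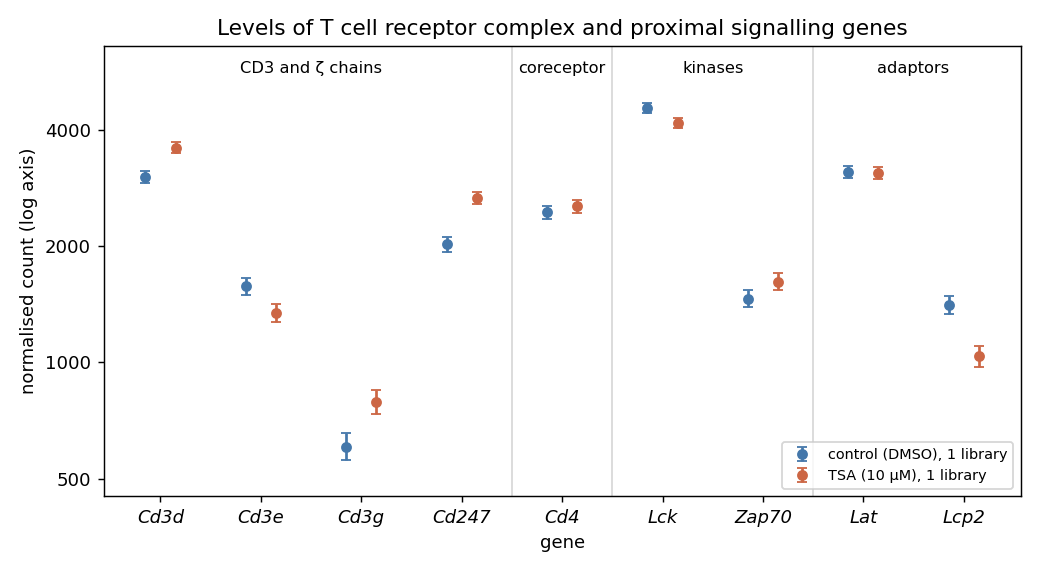
Normalised counts (log axis) of the 9 genes in the control library (blue) and the TSA library (red), grouped by role. Points are the 1 library of each condition and bars are exact Poisson 95% intervals, which cover counting error only. The TSA point is above the control point with no overlap of the bars for Cd3d, Cd3g, Cd247 and Zap70, and below it with no overlap for Cd3e, Lck and Lcp2.

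The receptor chains did not move together: Cd247, Cd3g and Cd3d were higher in the TSA library and Cd3e was lower. Cd247 had a deposited log2 value of 10.984 (2014 reads) in control and 11.381 (2679 reads) in TSA-treated cells, or 1.32-fold with a 95% interval of 1.24 to 1.40. Cd3g, whose protein pairs with CD3ε, had 9.243 (602 reads) and 9.628 (794 reads), or 1.31-fold (1.17 to 1.45). Cd3d, whose protein also pairs with CD3ε, had 11.564 (3012 reads) and 11.813 (3615 reads), or 1.19-fold (1.13 to 1.25). For these 3 genes the TSA library was the higher one by more than counting error. Cd3e, which encodes the chain shared by both kinds of CD3 pair, had 10.620 (1565 reads) and 10.395 (1352 reads), or 0.856-fold (0.795 to 0.921). It was the only chain below its control value, and the interval excluded no change.

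The proportions between the chains do not depend on how the libraries are scaled. Of the reads of these 4 genes, Cd3e held 21.8% (95% Clopper-Pearson interval 20.8 to 22.7) in control and 16.0% (15.2 to 16.8) in TSA-treated cells. Cd247 held 28.0% (27.0 to 29.1) and 31.7% (30.7 to 32.7). For Cd3d the share was 41.9% (40.7 to 43.0) and 42.8% (41.8 to 43.9), and for Cd3g 8.37% (7.74 to 9.03) and 9.41% (8.79 to 10.1). The share of Cd3e thus went down and that of Cd247 up with intervals that did not overlap. The intervals of the Cd3d and Cd3g shares overlapped, which does not by itself show that these shares were the same. The ratio of Cd247 to Cd3e reads was 1.29 in control and 1.98 in TSA-treated cells, a ratio of ratios of 1.54 (1.40 to 1.69). For Cd3d over Cd3e, the neighbours whose ends face each other, that ratio went from 1.92 to 2.67, a ratio of ratios of 1.39 (1.27 to 1.52). For Cd3g over Cd3d, the neighbours that point away from each other, the ratio of ratios was 1.10 (0.978 to 1.23), which includes no difference in change.

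**Figure D2:**
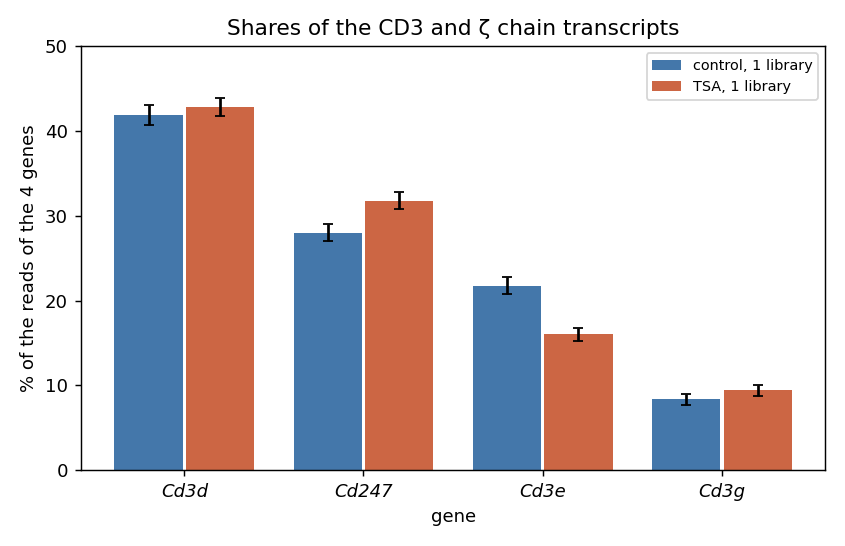
Share (in %) of each of the 4 genes among their summed reads, in the control library (blue) and the TSA library (red). Error bars are exact binomial 95% intervals of the 1 library per condition. The Cd3e bar is 21.8% in control and 16.0% in TSA-treated cells.

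The Cd247 value has a limit of its own. The last 500 bases of its longest coding transcript are also exon sequence of Pou2f1, a transcription factor gene on the opposite strand, and whether the authors' counting used strand is not given in the sources used here. If it did not, reads of both genes cannot be told apart there. The Pou2f1 row held 966 reads in control and 1098 in TSA-treated cells, against 2014 and 2679 for Cd247. No gene on the opposite strand had exon sequence in the last 500 bases of another member. The reads come from transcript ends, so they say nothing about which start was used for Lck, whose coding transcripts start up to 15269 bp apart at a distal and a proximal promoter.

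Cd4 had closely similar levels in both libraries. Its deposited log2 value was 11.257 (2434 reads) in control and 11.309 (2549 reads) in TSA-treated cells, or 1.04-fold (0.981 to 1.10). The interval includes no change and excludes a change of 1.5-fold either way. With scaling by total reads the fold change was 1.09 (1.03 to 1.15), so the call for Cd4 depended on the scaling.

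The kinase genes differed in direction and by small amounts. Lck had the highest reads of the 9 genes, with 12.153 (4531 reads) in control and 12.025 (4187 reads) in TSA-treated cells, or 0.915-fold (0.877 to 0.954). With scaling by total reads it was 0.961 (0.921 to 1.002), an interval that includes no change. Zap70 had 10.514 (1454 reads) and 10.662 (1627 reads), or 1.11-fold (1.03 to 1.19). The ratio of Zap70 to Lck reads was 0.321 in control and 0.389 in TSA-treated cells, a ratio of ratios of 1.21 (1.12 to 1.31).

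The adaptor Lcp2 was the member with the lowest fold change, while the interval of its partner Lat included no change. Lcp2 had 10.459 (1400 reads) in control and 10.018 (1041 reads) in TSA-treated cells, or 0.737-fold (0.679 to 0.798). Its log2 fold change of -0.44 was at the 13.2nd percentile of all genes tested. Lat had 11.607 (3103 reads) and 11.595 (3108 reads), or 0.992-fold (0.943 to 1.04), and its log2 fold change of -0.012 turned to 0.058 with scaling by total reads. The ratio of Lat to Lcp2 reads went from 2.22 to 2.99, a ratio of ratios of 1.35 (1.23 to 1.48).

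**Figure D3:**
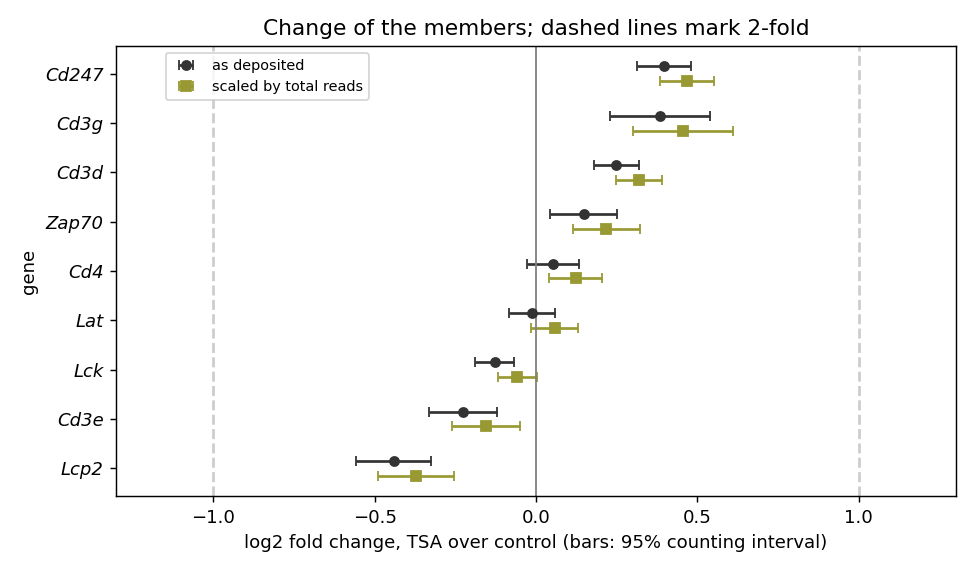
Log2 fold change (TSA over control) of each member with its 95% counting interval, as deposited (black circles) and scaled by total reads (olive squares); 1 library per condition. Values run from -0.44 for Lcp2 to 0.40 for Cd247, and all lie inside the dashed lines that mark 2-fold.

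In all, 4 members were higher in the TSA library with a 95% interval that excluded no change (Cd247, Cd3g, Cd3d and Zap70), 3 were lower (Lcp2, Cd3e and Lck) and 2 were neither (Cd4 and Lat). Among all genes tested the same rule called 28.1% higher and 28.0% lower, 56.1% in all. Among the 3962 genes with a mean normalised count of at least 500, as all 9 members had, it called 20.8% higher and 48.5% lower. A count of 7 of 9 is therefore near the background of 69.3% for genes of that level. No member passed 2-fold, against 14.7% of all genes tested (11.5% higher and 3.15% lower) and 0.934% of those at that level (0.227% higher and 0.707% lower). The median log2 fold change was 0.052 for the members, 0.015 for all genes tested and -0.11 for genes at that level. With scaling by total reads, 5 members were higher (with Cd4) and 2 lower (without Lck), and the calls among all genes moved from 3416 higher and 3407 lower to 4096 and 2631. Without the ribosomal RNA precursor Rn45s in that total, 6 members were higher, with Lat as well.

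**Figure D4:**
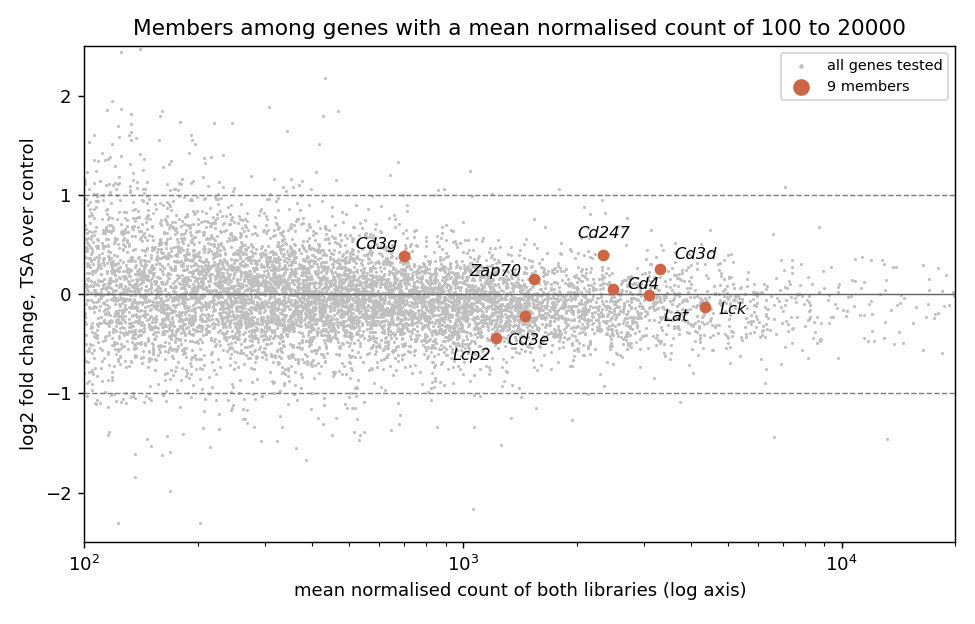
Log2 fold change against the mean normalised count (log axis, 100 to 20000) of the genes tested (grey) and the 9 members (red). The dashed lines mark 2-fold. The members lie between 698 and 4360 normalised counts, inside the cloud of genes of the same level.

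Ratios between members were compared for all 36 pairs, with 95% intervals that are not adjusted for their number. In 30 pairs (83.3%) the interval of the ratio of ratios excluded no difference, as it did in 66.5% of all pairs of genes with a mean normalised count of at least 500. Each member is in 8 of the pairs, so the pairs are not independent. The other 6 were neighbours in the order of change: Cd247 with Cd3g, Cd3g with Cd3d, Cd3d with Zap70, Zap70 with Cd4, Cd4 with Lat, and Lck with Cd3e. The widest was Cd247 over Lcp2, which went from 1.44 to 2.57, a ratio of ratios of 1.79 (1.62 to 1.97). With only 2 libraries, many genes share the change of any member: within 0.05 on the log2 scale of a member lay between 488 (Cd247) and 1148 (Lck) of the genes tested. The genes with values nearest to the mean of the 9 members, over the 2 deposited values, were Brk1, Srp14 and Cs, at distances of 0.0072, 0.016 and 0.025 on the log2 scale, and 33 genes lay within 0.1.

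Most related genes with the same kind of function in other lymphocytes and myeloid cells were scarce. Zap70 had 1454 and 1627 reads in the control and TSA libraries, and its relative Syk 12 and 4. Lat2 had 28 and 44 reads beside 3103 and 3108 of Lat, and the SLP-76 relatives Blnk and Clnk had 0 and 4 and 1 and 0. The ITAM adaptors Fcer1g and Tyrobp had 62 and 50 and 11 and 12 reads. Fyn, the Src family kinase that T cells use beside LCK, was an exception, with 1989 and 1975 reads and a fold change of 0.983 (0.923 to 1.047). Of the other Src family genes, Src had 28 and 19 reads, Fgr 17 and 14, Lyn 7 and 15, Yes1 14 and 4 and Blk 1 and 3. Lag3, which encodes a CD4-like inhibitory receptor, had 17 and 32 reads. Of 13 relatives tested, 2 (Lag3 and Hcst) were higher and 1 lower by more than counting error, against 28.1% and 28.0% of all genes tested. Hcst, which encodes the DAP10 adaptor, was also less scarce than most, with 218 and 431 reads, or 1.95-fold (1.66 to 2.32). Yes1 was the lower one, at 0.330 (0.0678 to 0.901). The relatives had a median log2 fold change of -0.025 over 13 tested of 17, which was 0.046 with scaling by total reads.

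The CD4+ T cell label was checked against other cell types, with markers named after their values were seen. The CD8 genes Cd8a and Cd8b1 had 15 and 65 reads in the control library and 10 and 77 in the TSA library, against 2434 and 2549 for Cd4. The B cell markers (8 in the tables) summed to 46 reads in control and 85 in TSA-treated cells, with Pax5 at 0 in both and the only ones tested, Cr2 and Cd79b, at 34 and 64 reads, or 1.84-fold (1.21 to 2.91), and at 11 and 4 reads, or 0.413-fold (0.0836 to 1.22). The NK cell markers (8) summed to 89 and 95 reads, mostly of Klrd1 (47 and 40) and Eomes (30 and 40) and with Ncr1 at 0 and 1, and the myeloid markers (14) to 152 and 129 reads, mostly of Fcer1g (62 and 50), Cd68 (32 and 19) and Mpeg1 (21 and 24) and with C1qa and C1qb at 0 in both. The erythroid and platelet markers (8) summed to 79 and 99 reads, with Hba-a2 at 0 in both, Hba-a1 at 28 in both and Hbb-bs at 4 and 17, or 3.57-fold (1.37 to 17.2). Of the γδ T cell list only Sox13 was in the tables, with 8 and 11 reads. The dendritic cell markers (7) had 170 and 292 reads in sum, with 3 higher and 1 lower by more than counting error among 4 tested (28.1% and 28.0% of all genes tested). H2-Ab1 went from 42 to 157 reads, or 3.64-fold (2.62 to 5.34). Cd74, whose protein is the invariant chain of MHC class II, had 113 and 85 reads, or 0.747-fold (0.555 to 0.996). Flt3 had 0 and 33 reads and Zbtb46 2 and 11, or 3.96-fold (1.19 to 50.6), while Siglech was at 0 in both libraries and Itgax had 4 and 0. The part of these cells in the results above was not tested. None of the 13 symbols listed for the antigen-binding receptor chains was a row of the tables, so their levels were not analysed here.

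Downstream of the members, the genes of the complex built on LAT and SLP-76 were counted by the same rules. Of 22 listed, 21 were tested, of which 7 were higher and 3 lower by more than counting error and 11 were neither, with a median log2 fold change of 0.13, against 28.1% higher, 28.0% lower and a median of 0.015 among all genes tested (33.7% and 21.6% with scaling by total reads). The count of higher genes is near that background, and that of lower genes is below it, a difference that was not tested. Among genes with a mean normalised count of at least 500, as part of the list had, 20.8% were higher and 48.5% lower. No gene of the list passed 2-fold, against 14.7% of all genes tested and 0.934% of those at that level. Fyb, which encodes the SLP-76 partner ADAP, went from 1184 to 1757 reads, or 1.47-fold (1.36 to 1.58). Nck2, an actin-linking adaptor, had 59 and 94 reads, or 1.57-fold (1.13 to 2.22). Prkcq, which encodes protein kinase C θ, had 273 and 225 reads, or 0.817-fold (0.681 to 0.977). These 3 had the largest changes in the list among genes with at least 50 reads on average. The phospholipase gene Plcg1, a main partner of LAT named here after its values were seen, had 10 and 17 reads, too few to show a difference (fold change 1.62, interval 0.728 to 4.11).

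Other receptors and adaptors near the T cell receptor were counted in the same way. Of 15 listed, 14 were tested, 6 were higher and 3 lower by more than counting error (28.1% and 28.0% of all genes tested), 5 were neither, and the median log2 fold change was 0.18. The 2 genes past 2-fold were both higher in the TSA library, a share near the 14.7% of all genes tested past 2-fold. Unc119, whose protein is an activator of LCK and FYN, had 72 reads in control and 157 in TSA-treated cells, or 2.14-fold (1.62 to 2.90). Ptpn3, a tyrosine phosphatase gene, had 75 and 163 reads, or 2.14-fold (1.63 to 2.87). These intervals start below 2-fold, so a smaller change is within counting error.

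Among the genes that restrain or set the activity of the kinases, higher and lower calls were about as even as among all genes tested (28.1% and 28.0%). Of 23 symbols listed, 21 were in the tables and tested, with 7 higher and 8 lower by more than counting error and 6 neither. The symbols not in the tables were other names of Ubash3b and Map4k1, which the list also holds. The median log2 fold change was -0.063 as deposited and 0.0071 with scaling by total reads, so it had no fixed direction. Sla, which encodes the Src-like adaptor known to lower receptor levels through the ζ chain and CBL, went from 556 to 1127 reads, or 2.004-fold (1.81 to 2.23). It lies at the 2-fold threshold, and a smaller change is within counting error. With Rnf128, 2 genes of the list passed 2-fold, against 14.7% of all genes tested. Among genes with a mean normalised count of at least 500, as Sla but not Rnf128 had, 0.934% did (0.227% higher). Rnf128, named after its values were seen, had 3 and 50 reads, a fold change with an interval of 5.33 to 82.7, and encodes the ubiquitin ligase GRAIL. Csk, the kinase that holds LCK inactive, had 2562 and 2593 reads, and its interval (0.949 to 1.06) includes no change. Ptprc, which encodes the CD45 phosphatase, had a fold change of 1.17 (1.14 to 1.21), while Ptprcap, which encodes a protein bound to CD45, had 0.662 (0.630 to 0.694). These 3, chosen for their role next to LCK after their values were seen, thus differed in direction.

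**Figure D5:**
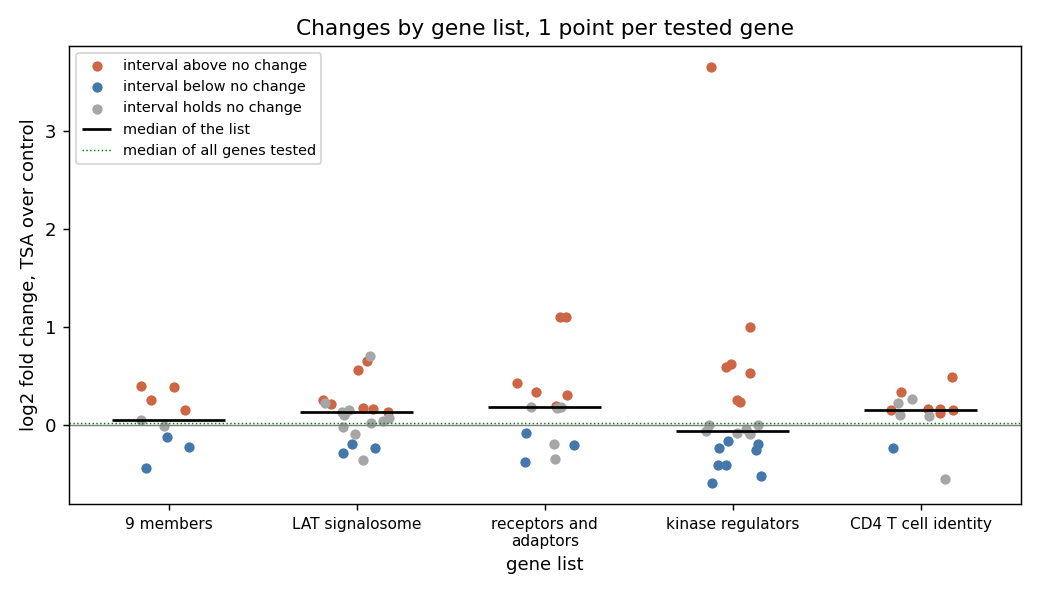
Log2 fold change (TSA over control) of each tested gene in the 9 members and in the lists around them, 1 library per condition. Red and blue points have a 95% counting interval above and below no change, grey points include it, black bars are list medians and the green dotted line is the median of all genes tested. The members spread on both sides of 0 with a median of 0.052, and the 4 points at or above 1 are Rnf128, Sla, Unc119 and Ptpn3.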

How the data were processed

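RNA from 1 control culture and 1 TSA culture was sequenced by the authors as QuantSeq 3′ end libraries (single-end, 75 nt). Per the labels, the processing notes name Bowtie2, bedtools and mm10, while the annotation and the strand setting of the counting are not given in the sources used here. The authors deposited log2 values, 1 per row and library for 23282 rows (23238 symbols). Back on the linear scale with the 1 removed, the values were multiples of 1.005 (control) and 0.995 (TSA) normalised counts, and among genes with 1 to 300 reads 99.95% and 99.94% lay within 0.1 of a whole read. The reads of a gene are those multiples. Protein sequences were not analysed here. A few listed genes are not reported here.

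With 1 library per group no p-value was computed. Genes were tested at 10 reads or more in at least 1 library. Intervals and floors cover counting error only, since PCR copies could not be told apart. Group labels came from the treatment field.

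The members and the gene lists were chosen with earlier results of these data known. Named genes are the 9 members, the genes most like them, the listed relatives and, per list, genes past 2-fold with at least 50 reads on average, or else the 3 with the largest change. Markers of other cell types and all other genes were named after their values were seen. Intervals of a ratio of ratios were taken on the log scale. Gene positions and transcript lengths are from GENCODE M21, promoters from RefSeq (GRCm38.p6), matched by symbol. Lengths were found for 96.1% of the genes tested.

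The steps were tested on simulated data that held counting error only. These simulations therefore do not cover differences between cultures or library preparations. Alternatives covered scaling, pseudocount, filter, threshold, interval and length. Tools were matplotlib 3.10.9, pandas 2.3.3, scipy 1.17.1, numpy 2.4.6 and Python 3.11.15.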

Additional observations from a re-analysis of the deposited data

How the results depend on the processing

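No paired analysis was possible because each condition had a single library, which also leaves no replicate to omit. Scaling moved all fold changes alike, by at most 0.085 on the log2 scale, and with scaling by total reads without Rn45s the median of the members was 0.137 in place of 0.052. Of 72 recomputed member fold changes, 3 changed sign, all of Lat (total reads with and without Rn45s, upper quartile), which as deposited did not exceed counting error but did so, as higher, with total reads without Rn45s. Under every scaling and at a 99% interval, 7 or 8 members exceeded counting error. None passed 2-fold, or 1.5-fold, under any scaling or pseudocount tried. The medians of the relatives and of the kinase regulators changed sign with scaling by total reads, and that of the relatives also with at least 10 reads in both libraries (0.0385) or a mean normalised count of at least 50 (0.101). With reads divided by transcript length, the members lay between the 75.03rd and the 97.3rd percentile of genes tested.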

Other observations

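A list of 13 genes of CD4+ T cell identity held transcription factors and also Cd8a and Cd8b1. Of these, 7 were higher and 1 was lower by more than counting error, 5 were neither, against 28.1% higher and 28.0% lower among all genes tested (33.7% and 21.6% with scaling by total reads). None passed 2-fold, against 14.7% of all genes tested and 0.934% of those with a mean normalised count of at least 500. The difference from all genes was not tested. The median log2 fold change was 0.15, against 0.015 for all genes tested. Ets1, an ETS family factor of T cells, had 2758 reads in control and 3917 in TSA-treated cells, or 1.41-fold (95% interval 1.34 to 1.48). Bcl11b, which keeps T cell commitment, had 6502 and 8306 reads, or 1.26-fold (1.22 to 1.31). Tcf7, which encodes TCF-1, had 138 and 167 reads, or 1.20-fold (0.951 to 1.51), which includes no change. Tox was the gene that was lower, with 339 and 291 reads, or 0.851-fold (0.724 to 0.997), and is named after its values were seen.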
